A study of Rattus norvegicus with 24 samples.

Results

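Probes RG316, RG433, R642 and R272 were described on 24 arrays of rat heart left ventricle, as 4 of the 1185 probes in the deposited table. They were named beforehand for intensities that were higher after myocardial infarction (MI) than after a sham operation on both days sampled, so the difference between the operations chose them and is given below as a description, with no test. The groups were MI at day 1, sham at day 1, MI at day 7 and sham at day 7 after the operation, with 6 arrays of total RNA in each. Per the labels, the infarcted rats gave left ventricle and septum with the infarct zone left out, and the sham rats gave the whole left ventricle and septum, so the piece of muscle sampled and the operation cannot be told apart. The titles and keywords place 6 sham arrays at day 1, and their free-text descriptions name day 7. The titles were used. No strain, age, sex or way of making the infarct is given in the sources used here, nor whether each array came from a different rat, so the spread between arrays may in part be technical. In bulk muscle, a change in the mix of cells and a change in RNA per cell cannot be told apart.

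An infarct is heart muscle that dies when its blood supply stops. In the days that follow, inflammatory cells clear the dead tissue, fibroblasts lay down matrix that becomes the scar, and the surviving muscle around it takes on more load and begins to enlarge. Transcripts of these processes are commonly raised in the surviving left ventricle, and they differ in whether they rise early, late or throughout. No gene name is paired with these 4 probe IDs in the deposited table, and 0 of the 4 matched the rat gene table at hand, so no role can be given to a probe, the tissue could not be checked against its marker genes, and each probe is described by ID.

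Intensities are the linear values as deposited, in arbitrary units, and a blank cell was treated as missing. Of all cells of the deposited file, 63.3% were blank. Of the 24 arrays, 6 listed only 141 to 296 probes and the other 18 listed 404 to 684. These 6 sparse arrays are A507 to A509 (sham, day 1) and A510 to A512 (MI, day 1). Probes listed on every array were dimmer on the sparse arrays, with a median of 117.5 to 250.3 against 241.7 to 338.3 on the others, so values at day 1 carry differences in level between whole arrays. For that reason a second scale is given beside the deposited one. In this complete-probe scaling each array was shifted so that the mean log2 intensity of 94 probes listed on all 24 arrays was the same. RG316 is itself 1 of those 94.

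The probes differed in how often they were listed. RG316 was listed on all 24 arrays, RG433 on 20, R642 on 19 and R272 on 17. All 4 blanks of RG433 fell on sparse arrays, as did 3 of the 5 blanks of R642 and 3 of the 7 blanks of R272. At day 1 R272 was listed on 6 of 6 MI arrays and on 1 of 6 sham arrays. Such a gap, of 5 or more arrays in favour of MI at day 1, was seen in 3 of 759 probes listed at that day (0.395%), namely R272, R555 and RG474, the last 2 chosen after their values were seen. The blank sham arrays included A505 and A535, which were not sparse, while all 3 sparse MI arrays listed R272. The sham arrays blank for it also listed fewer probes of any kind. The sparse sham arrays listed 141, 174 and 197 against 296, 200 and 251 on the sparse MI arrays. A505 and A535 listed 433 and 421, against 452, 526 and 461 on MI arrays A506, A537 and A538. Whether the gap of R272 follows the number of probes listed was not tested. The rule behind the blanks is not given in the sources used here, so a blank was not read as a low level.

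RG433 had the largest difference between the days among the 3 probes that could be compared in all groups. Its MI values at day 1 were 126.3, 122.3, 93.3, 133.5 and 128.2, with array A511 blank. Its sham values at day 1 were 73.2, 49.3 and 89.2, with the 3 sparse arrays blank. At day 7 its MI values ran from 195.4 to 318.3 with a median of 260.0, and its sham values from 77.0 to 171.3 with a median of 91.5. MI and sham did not overlap on either day, and every MI value at day 7 lay above every value at day 1. The share of all probes with that separation between the days was not counted. Over the probes tested, the median log2 difference of day 7 from day 1, averaged over both operations, was 0.30. Group means at day 1 were 120.7 ± 15.9 (SD, n = 5) after MI against 70.5 ± 20.1 (SD, n = 3) after sham, and at day 7 they were 254.7 ± 48.1 (SD, n = 6) against 103.8 ± 34.2 (SD, n = 6). The MI to sham ratio of geometric means was 1.75 at day 1 (log2 difference 0.81, SE 0.27) and 2.51 at day 7 (1.33, SE 0.20).

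RG316 gave the values with fewest gaps, since no array left it blank. At day 1 its MI values ran from 259.1 to 493.7 with a median of 388.4, and its sham values from 84.6 to 262.6 with a median of 211.4. At day 7 they ran from 386.1 to 511.9 (median 456.0) in MI and from 129.0 to 349.1 (median 242.9) in sham. The groups did not overlap at day 7. At day 1 they overlapped by a single pair, the sparse MI array A511 at 259.1 and the sham array A535 at 262.6. The lowest sham value at day 1, 84.6 on array A507, came from the array that listed the fewest probes of all, 141. Group means were 384.5 ± 77.7 in MI and 197.9 ± 66.6 in sham at day 1, and 452.2 ± 48.6 and 254.6 ± 77.7 at day 7 (SD, n = 6 each). The log2 difference was 1.02 (SE 0.25) at day 1 and 0.89 (SE 0.24) at day 7.

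The complete-probe scale changed where RG316 overlapped. On it, MI ran from 312.7 to 463.4 and sham from 181.2 to 291.4 at day 1, with no overlap. At day 7 the sham array A501, at 370.1, then lay above the lowest MI array, at 361.0. The same was seen without any scaling, from the share of the other complete probes that were dimmer than RG316 on the same array, a measure added after the data were seen. That share was 61.3% to 86.0% on the MI arrays and 20.4% to 55.9% on the sham arrays at day 1. At day 7 it was 82.8% to 98.9% in MI and 5.38% to 82.8% in sham, with A501 the highest sham array and level with the lowest MI array. RG433, R642 and R272 lay lower on this measure. Mean shares in MI and sham at day 1 were 2.98% and 0.709% for RG433, 4.96% and 0.355% for R642, and 13.3% and 1.06% for R272. For each of them the lowest MI and highest sham shares at day 1 were equal, at 1.06%. At day 7 the means were 32.8% and 3.55% for RG433, 2.30% and 0% for R642, and 2.55% and 0% for R272. For RG433 at day 7 the sham array A501, at 15.96%, lay above the MI arrays A519 and A520, at 10.6% and 9.57%.

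R642 had similar group means on both days. Its MI values at day 1 were 155.4, 93.6, 100, 119.8, 137.8 and 108.7, and its sham values were 51.1, 71.7 and 57.9, with the 3 sparse sham arrays blank. Its value on A511 stood in the table as exactly 100, which was also the value of probe R371 on all 24 arrays. At day 7 its MI values were 77.9, 75.5, 170.4, 131.9, 145.8 and 92.2, and its sham values were 69.6, 53.1, 38.9 and 59.1, with A501 and A502 blank. The groups did not overlap on either day, although the day 7 margin between them was small, 75.5 against 69.6. The lowest 2 MI values at day 7 were on A503 and A504, the neighbours by title number of the 2 blank sham arrays. Means at day 1 were 119.2 ± 23.6 (SD, n = 6) after MI against 60.2 ± 10.5 (SD, n = 3) after sham, and at day 7 they were 115.6 ± 39.4 (SD, n = 6) against 55.2 ± 12.8 (SD, n = 4). The log2 difference was 0.98 (SE 0.28) at day 1 and 1.03 (SE 0.24) at day 7.

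R272 had a day 1 difference that rested on 1 sham array. Its MI values at day 1 were 229.2, 126.6, 107.9, 157.6, 183.6 and 125.6, and the 1 sham value, on A536, was 77.8. At day 7 its MI values were 118.1, 163.8, 146.6, 116.7 and 93.6, with A503 blank, and its sham values were 48.1, 35, 38.0, 29.5 and 69.5, with A502 blank. Listed MI values lay above listed sham values on both days, with day 7 the only day on which the sham spread was measured. Means at day 7 were 127.7 ± 27.5 after MI against 44.0 ± 15.8 after sham (SD, n = 5 each). The log2 difference was 1.58 (SE 0.25), the largest of the 4 probes at that day. At day 1 the MI mean was 155.1 ± 45.2 (SD, n = 6), and the log2 difference from the single sham value was 0.95, with no SE. A536 listed more probes, 559, than any other sham array of day 1.

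**Figure D1:**
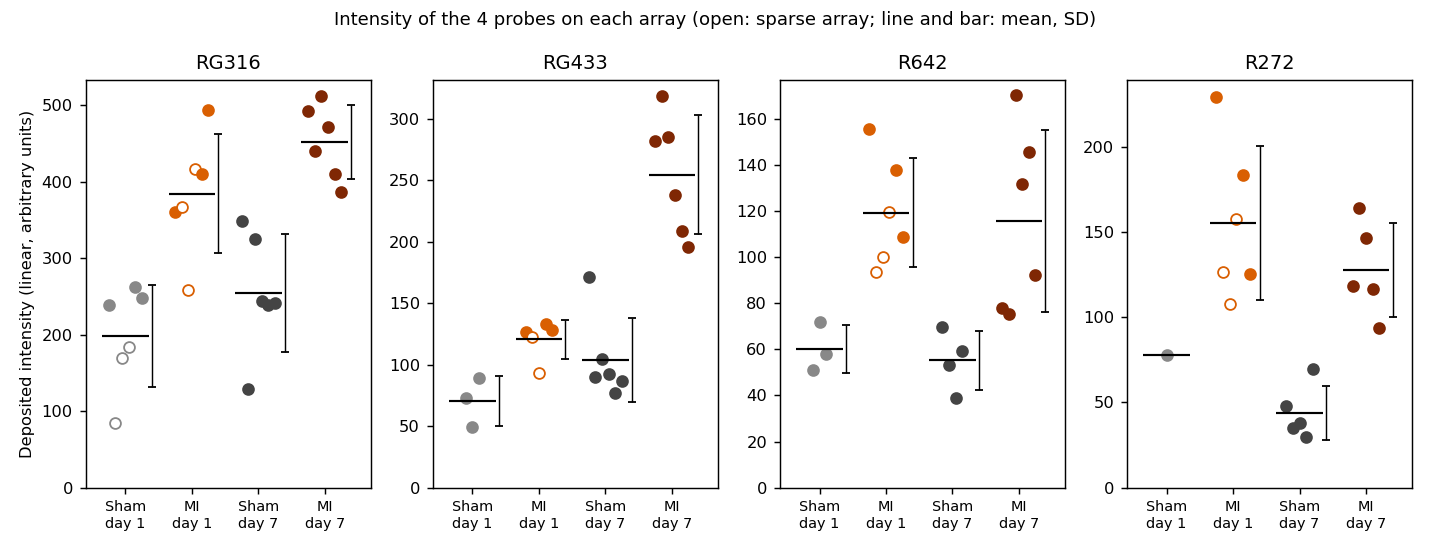
Deposited intensity (vertical axis, arbitrary units) of RG316, RG433, R642 and R272 on each array, by group. Each point is an array that listed the probe, open points are the 6 sparse arrays of day 1, the line is the group mean and the bar its SD. RG433 lies highest in MI at day 7 (195.4 to 318.3), whereas R642 spans similar values in MI on both days, and R272 has 1 sham value at day 1.

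Probes whose listed MI values all lay above the listed sham values were few at day 1, with 4 of 283 (1.41%), and more at day 7, with 22 of 486 (4.53%). The 4 of day 1 were RG433, R642 and, chosen after their values were seen, R631 and RG071. Their margins differed: for R642 the lowest MI and highest sham values were 93.6 and 71.7, for RG433 93.3 and 89.2, for R631 74.7 and 74.2 and for RG071 75.9 and 75.5. Over both days together RG433 and R642 were the 2 of 275 probes (0.727%) with no overlap, on the deposited and on the complete-probe scale. For RG433 the complete-probe margin at day 7 was small, 182.7 on MI array A520 against 181.6 on sham array A501. By the share of dimmer complete probes, RG433 overlapped at day 7. On the complete-probe scale, RG316, RG433 and R642 did not overlap at day 1, among 9 of 283 probes (3.18%), and RG433, R642 and R272 did not at day 7, among 28 of 486 (5.76%).

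The members were named for higher values after MI on both days, so a high place among all probes follows from that choice. Their place was read from the smaller of the 2 days' log2 differences. This value was 0.98 for R642, 0.89 for RG316 and 0.81 for RG433, the highest 3 of the 275 probes tested on both days. Just outside them lay RG140 at 0.54, RG380 at 0.49 and R274 at 0.49. RG140 was at 101.5 ± 55.1 (SD, n = 5) after MI against 64.6 ± 17.8 (SD, n = 3) after sham at day 1, and at 168.8 ± 51.1 and 99.6 ± 38.9 (SD, n = 5 each) at day 7. The median difference over the 275 probes was 0.12 at day 1 and 0.055 at day 7. With complete-probe scaling the medians were -0.022 and 0.017, the members' smaller differences were 1.04 for R642, 0.94 for RG433 and 0.75 for RG316, and RG140 again came next at 0.67. RG380 moved from rank 5 to rank 19 of the 275 with that scaling.

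**Figure D2:**
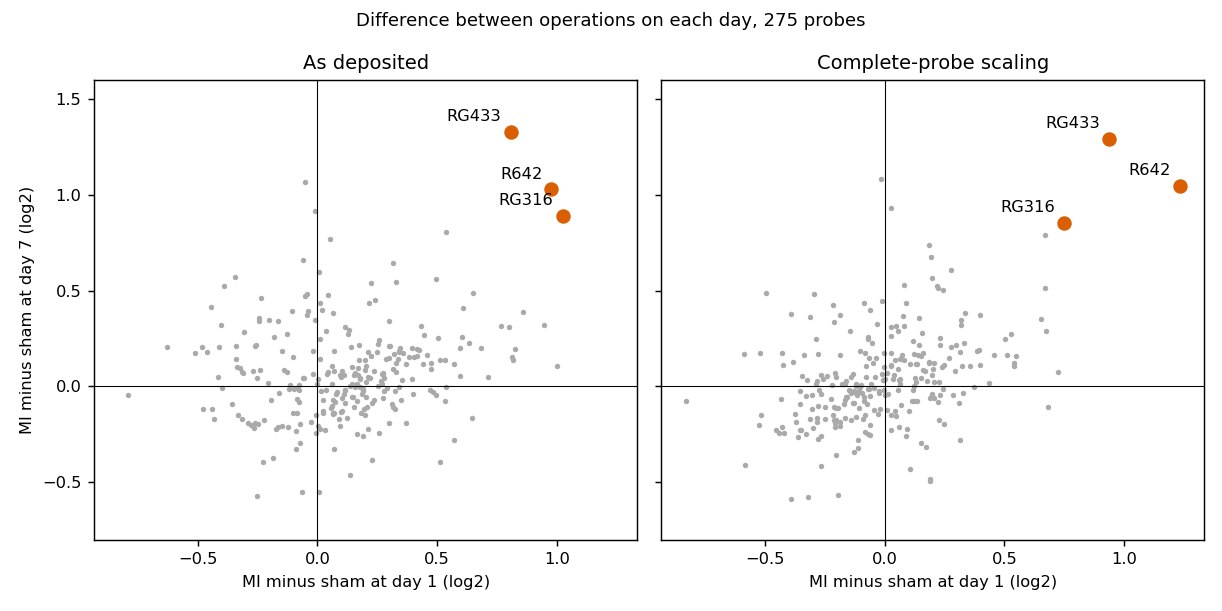
MI minus sham log2 difference at day 1 (horizontal axis) against day 7 (vertical axis) for the 275 probes tested on both days, as deposited (left) and with complete-probe scaling (right). Orange points are RG316, RG433 and R642, chosen for high values on both axes, and grey points are the other probes. R272 is absent because it had 1 sham value at day 1.

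MI was above sham for all 4 probes on both days under each scaling, array choice and block that gave a value, a direction that the choice of the probes favours. R272 at day 1 gave no value with the runs as a block or without A536. Without the sparse arrays, which left 3 arrays of each operation at day 1, the day 1 log2 difference was 0.74 for RG316, 0.92 for RG433, 1.15 for R642 and 1.16 for R272. With complete-probe scaling of all arrays the values were 0.75, 0.94, 1.23 and 1.25. RG316 was thus nearer to sham at day 1 on both of these settings than on the deposited scale, and RG433, R642 and R272 farther from it. When both sham groups were pooled, because the descriptions of the day 1 sham samples name day 7, the day 1 difference of RG433 was 0.44 and that of R272 was 1.69.

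Title numbers fell into 5 runs, each with both operations and a single day. RG316 was higher in MI in 5 of 5 runs, by 0.73 to 1.13 on the log2 scale, and RG433 in 5 of 5, by 0.63 to 1.41. R642 was higher in the 4 runs that listed it in both operations, by 0.93 to 1.30, and R272 in 4 of 4, by 0.96 to 2.09. The highest of these, for R272, was in arrays A513 to A516. Deposited values of RG433, R642 and R272 did not overlap on either day, nor did those of RG316 at day 7. The sign within those runs was therefore fixed beforehand and adds no support. RG433 and R642 had 1 sham array in A505 to A512, and R272 had 1 in A535 to A538. In A501 to A504 R272 had 1 array of each operation.

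**Figure D3:**
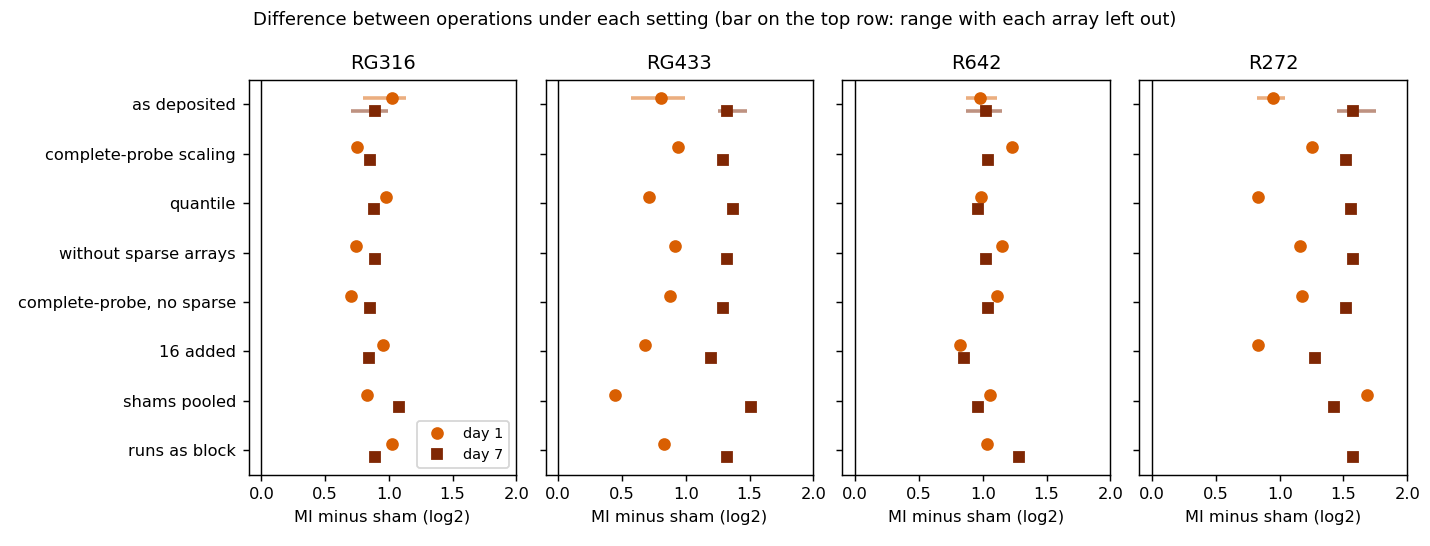
MI minus sham log2 difference (horizontal axis) of each probe at day 1 (circles) and day 7 (squares) under 8 settings (rows). The pale bar on the top row spans the values with each array left out in turn. Every point lies right of 0, a direction that the choice of the probes favours. RG433 at day 1 is lowest with the sham groups pooled (0.44), and R272 has no day 1 value with the runs as a block.

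Change with time was not used to choose the probes and was tested. The days are those of the titles, while the descriptions of the day 1 sham arrays name day 7. No alternative for that was run in this test. In the mean over both operations, RG433 was higher at day 7 than at day 1, while RG316 and R642 did not pass. With equal numbers listed in each group, that mean is independent of the MI to sham differences, which holds in full for RG316 and in part for RG433 and R642 because of their blanks. A probe was called at an adjusted p under 0.05. RG433 rose by 0.81 on the log2 scale (SE 0.17, limma adjusted p = 0.00597), or 1.75-fold. That p treats the arrays as independent, although each run of title numbers holds a single day. With the runs as a random block, at a correlation within runs of 0.37 over the probes tested, RG433 was not called (limma adjusted p = 0.505). RG316 was higher at day 7 by 0.32 (SE 0.17, limma adjusted p = 0.183; 95% interval -0.036 to 0.68), a value that was 0.086 with complete-probe scaling, 0.035 without the sparse arrays, 0.21 without A507 and 0.48 with quantile normalization, where it passed (limma adjusted p = 0.0337). R642 differed by -0.12 (SE 0.19, limma adjusted p = 0.683; 95% interval -0.51 to 0.27). R272 was not tested for want of sham values. In the same comparison 19 of 275 probes (6.91%) were called higher at day 7 and 2 lower (0.727%), with a median over all 275 of 0.30, so RG316 lay close to the middle of the table and RG433 above it.

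The rise of RG433 was called with complete-probe scaling (0.90, limma adjusted p = 0.000256), where the background was far larger, with 96 probes called higher (34.9%) and 29 lower (10.5%). It was also called without the sparse arrays (0.75, limma adjusted p = 0.00621). It was not called when the runs of title numbers entered as a random block (0.81, limma adjusted p = 0.505), a fit in which 0 of 275 probes were called and 15 had an unadjusted p under 0.05. No run holds both days, so the runs give no value of their own for the time difference.

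Within each operation the day differences share arrays with the contrasts that chose the probes and are given as values. RG433 was higher at day 7 by 1.07 (SE 0.22) in MI and by 0.55 (SE 0.26) in sham. RG316 was higher by 0.25 (SE 0.24) in MI and by 0.39 (SE 0.25) in sham, and with complete-probe scaling by 0.14 (SE 0.18) and 0.033 (SE 0.18). R642 differed by -0.092 (SE 0.22) and -0.14 (SE 0.30). R272 differed by -0.26 (SE 0.24) in MI, and by -0.40 (SE 0.21) with complete-probe scaling. The MI to sham difference at day 7 minus that at day 1 was 0.52 for RG433 (95% interval -0.18 to 1.22), -0.13 for RG316 (-0.85 to 0.58) and 0.051 for R642 (-0.72 to 0.83). This is a difference between the contrasts that chose the probes, so the intervals are descriptions and may not cover at 95%. As printed they hold both no change between the days and a change of over 0.5 on the log2 scale in at least 1 direction for each probe.

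The ratio of a probe to RG316 on the same array does not depend on how the array was scaled. It was added after the data were seen, shares arrays with the differences that chose the probes, and is given as values. The ratio of RG433 to RG316 in MI was 0.224 to 0.351 at day 1 (n = 5) and 0.505 to 0.723 at day 7 (n = 6), with no overlap between the days. Its geometric mean was 1.89-fold higher at day 7, a log2 difference of 0.92, and of 0.85 without the sparse arrays. How many other probes had a ratio to RG316 without overlap between the days was not counted, so the separation may be common. In sham the same ratio was 1.50-fold higher at day 7 (n = 3 and 6), with overlapping values. Each run of title numbers holds a single day, so days and runs differ together in these ratios.

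R272 and R642 lay the other way against RG316 in MI, with overlapping values. The ratio of R272 to RG316 had a geometric mean of 0.397 (n = 6) at day 1 and 0.284 (n = 5) at day 7, a log2 difference of -0.49. The ratio of R642 to RG316 was 0.311 at day 1 and 0.245 at day 7 (n = 6 each), a log2 difference of -0.35, and in sham it differed by -0.20 (n = 3 and 4). Ratios compare arrays with each other and say nothing of which transcript is the more abundant.

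**Figure D4:**
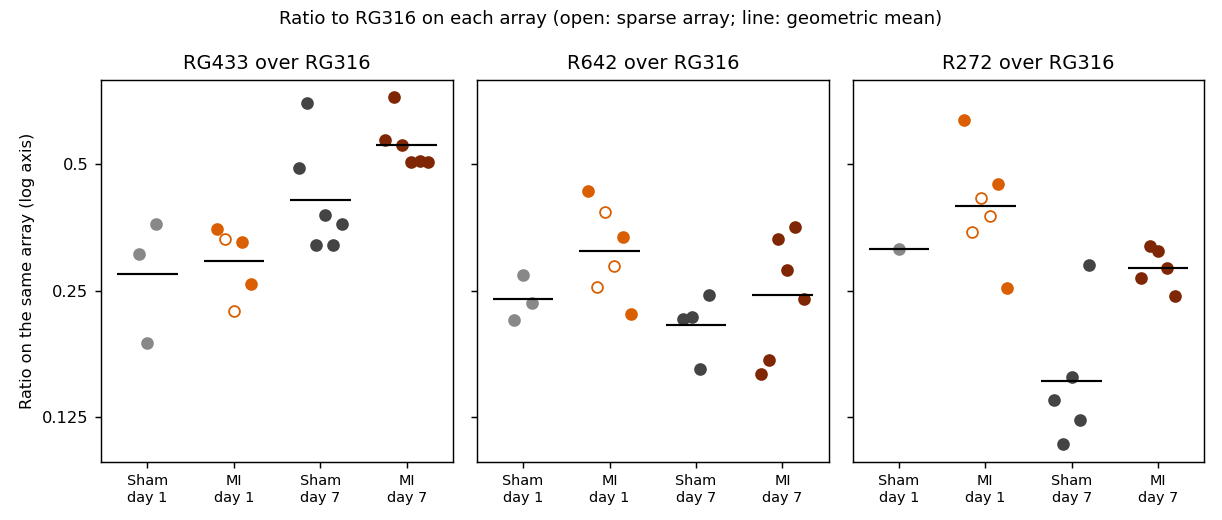
Ratio of RG433, R642 and R272 to RG316 on the same array (vertical log axis, base 2), by group. Each point is an array listing both probes, open points are sparse arrays, and lines are geometric means. In MI, RG433 over RG316 is 0.224 to 0.351 at day 1 and 0.505 to 0.723 at day 7.

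Whether the probes vary together between arrays of a single group was also open to test, since such covariation was not used to choose them. There were 7 cases of a pair listed on all 6 arrays of a group, and 0 of the 7 passed after adjustment, with 1 at an unadjusted exact permutation p under 0.05. That was R642 with R272 in MI at day 1, where both were highest on A506 and next highest on A537 (Pearson r = 0.948, n = 6, two-sided exact permutation p = 0.0111 and 0.0778 after adjustment). Spearman's rho for the same arrays was 0.829, with an exact permutation p = 0.0583 and 0.204 after adjustment. Leaving aside A506 and A510, the 2 arrays farthest from the median R642 value on either side, gave r = 0.987. A537 stayed in that value, and r without both A506 and A537 was not computed. With complete-probe scaling r was 0.891 (exact permutation p = 0.0222, adjusted p = 0.156). The 3 sparse and 3 other arrays of that group are too few for an r within each.

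RG316 followed neither of them in that group, with r = 0.229 against R642 (exact permutation p = 0.714, adjusted p = 0.714; rho = 0.0857) and r = 0.272 against R272 (exact permutation p = 0.642, adjusted p = 0.714; rho = 0.0286). RG316 and RG433 had r = 0.709 in MI at day 7 (exact permutation p = 0.122, adjusted p = 0.318; rho = 0.657) and r = 0.560 in sham at day 7 (exact permutation p = 0.136, adjusted p = 0.318; rho = 0.829). With the 2 most extreme RG316 arrays left aside, these were 0.425 and 0.834 as deposited, and -0.038 and 0.814 with complete-probe scaling. RG433 and R642 had r = -0.273 in MI at day 7 (exact permutation p = 0.581, adjusted p = 0.714; rho = -0.257), and RG316 and R642 had r = 0.230 there (exact permutation p = 0.656, adjusted p = 0.714; rho = 0.257).

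**Figure D5:**
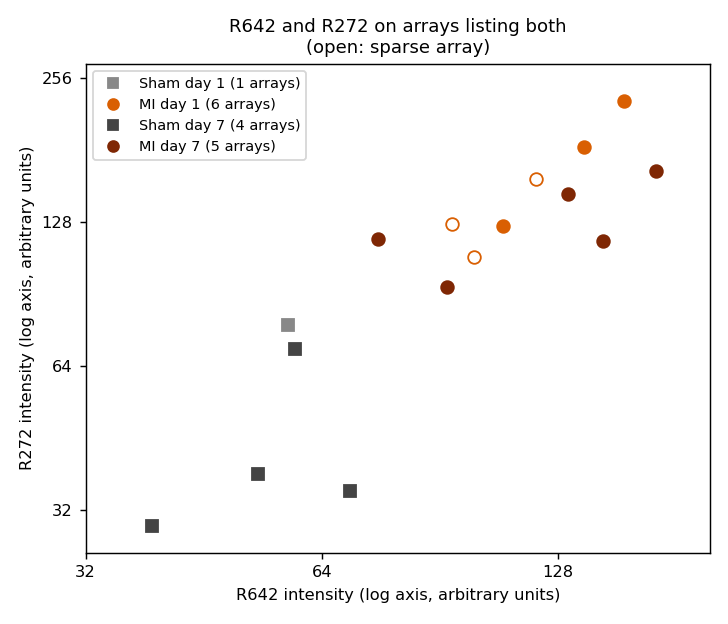
Intensity of R642 (horizontal log axis) and R272 (vertical log axis) on the arrays listing both, by group. Circles are MI, squares sham, and open points sparse arrays. The 6 MI arrays of day 1 lie close to a line (r = 0.948), and the 5 MI arrays of day 7 are more scattered.

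Over all arrays and groups, the probes closest in pattern to each member were found by the Pearson r of log2 intensity with complete-probe scaling, over arrays listing both and with at least 16 of these. These values are descriptions across all 4 groups and include the difference between operations that chose the members. RG433 was followed most closely by R017 (r = 0.859), R344 (r = 0.798) and R572 (r = 0.753), over 16 arrays each. Over its 293 candidates the median r was 0.147 and the 95th percentile 0.612. RG316 was followed by R572 (r = 0.647, 16 arrays), R531 (r = 0.630, 18 arrays) and RG122 (r = 0.621, 17 arrays). Over its 299 candidates the median was 0.0051 and the 95th percentile 0.510. With the deposited scaling a different 3 probes led for RG316, and 0 of its 3 remained.

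For R642 the nearest were R364 (r = 0.712, 19 arrays), R274 (r = 0.665, 18 arrays) and RG421 (r = 0.647, 19 arrays). Over its 247 candidates the median was -0.033 and the 95th percentile 0.535. For R272 the nearest were RG421 (r = 0.786), RG398 (r = 0.689) and RG515 (r = 0.683), over 17 arrays each. Over its 168 candidates the median was -0.17 and the 95th percentile 0.576. On this scale R572 was among the nearest of both RG433 and RG316, and RG421 among those of both R642 and R272. With the deposited scaling neither was shared in this way, and R364 was among the nearest of both R642 and R272. Between members, r on the same scale was 0.884 for R642 with R272 (16 arrays), 0.796 for RG316 with R642 (19 arrays) and 0.743 for RG316 with RG433 (20 arrays). It was lowest for RG433 with R272, at 0.443 (16 arrays).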

How the data were processed

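The values used were the linear intensities deposited by the authors in 1 table of 1185 probes and 24 arrays. The median listed value of an array lay between 91.1 and 107.5. The scanner, background treatment, scaling and blank rule were not given in the sources used here. No column belonged to another series, and 0 array pairs were identical. Groups came from the titles. Intensities were put on the log2 scale with no constant added. A linear model over the 4 groups used all arrays (limma 3.58.1 in R 4.3.3, lmFit, with variances moderated as in eBayes), leaving out R371, which was 100 on every array. Blank cells were dropped from each probe's fit. A test needed 3 or more listed values per group compared, and Benjamini-Hochberg adjustment ran over all probes tested. Python 3.11.15 with scipy 1.17.1 gave the exact permutation tests. Simulated tables with known changes served to test the fit. The members, comparisons and rules were chosen with earlier results of these data known. The probes named were the 4 members, the 3 nearest in pattern to each and the 3 with the next largest difference on both days. Alternatives were complete-probe scaling, quantile normalization, leaving out sparse arrays or single arrays, 16 added before the log, pooled shams, runs of title numbers as a block, other minimums, a brightness filter, a trend with robust variances and a stricter threshold. The number of arrays limits the precision.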

Additional observations from a re-analysis of the deposited data

Results flagged for a closer look

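Groups of 4 to 6 listed values of the 4 probes were screened by Dixon's ratio on linear intensities. Of 13 groups, 2 held an array that stood apart from the others, where chance gives about 1 in 20 groups. The rule was not applied on the log2 scale used for the fits, so a flag may not hold there. RG433 in MI at day 1 was 93.3 on array A512, a sparse array, against 122.3 to 133.5 on the other 4. RG433 in sham at day 7 was 171.3 on array A501 against 77.0 to 104.4 on the other 5, and the MI values of the same day began at 195.4.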

How the results depend on the processing

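All 168 values of the MI minus sham difference of the 4 probes under the alternatives were above 0, from 0.44 to 2.09 on the log2 scale. The choice of the probes favours that direction, so the count is a description and not a test. Leaving out an array on which a probe was blank repeated its main value. For probes whose groups did not overlap, leaving out 1 array could not change the sign. The values that moved by more than the spread between arrays were RG433 and R272 at day 1 with the sham groups pooled, at 0.44 and 1.69, and R272 at day 7 within arrays A513 to A516, at 2.09. The rise of RG433 from day 1 to day 7 was called in all 21 fits that left out 1 array and could test it. It was 0.73 to 0.84 there, with a highest limma adjusted p of 0.0139. Among these fits, 4 left out an array on which RG433 was blank, so its value of 0.81 did not change. Without A505, A535 or A536, the arrays behind its day 1 sham mean, RG433 had too few sham values. With the runs as a random block the rise was 0.81 (limma adjusted p = 0.505). RG316 passed for the days with quantile normalization, at 0.48 (limma adjusted p = 0.0337). The number of probes called between the days was 21 as deposited, 125 with complete-probe scaling (96 higher, 29 lower), 99 with quantile normalization (97 higher, 2 lower), 44 with complete-probe scaling without the sparse arrays, 25 without the sparse arrays as deposited (5 higher, 20 lower), 0 of 275 in limma with the random block (15 at an unadjusted p under 0.05), 6 among probes with all values listed and 7 at an adjusted p under 0.01. Leaving out 1 array gave 13 to 66. It was 58, 48 and 66 without day 1 sham A505, A535 and A536, 57 and 40 without day 1 MI A537 and A538, and 13 without day 7 sham A513 or A514, while fewer probes could be tested. The correlation of RG316 with R272 in MI at day 1 was -0.10 with complete-probe scaling. No paired analysis was possible because the titles number arrays without repeating a number between groups.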
